A study of Mus musculus with 4 samples.

Results

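The cytosolic ribosomal protein genes were followed in RNA from sorted cells labelled as liver macrophages. Members were taken by name, as every gene in the deposited tables named Rpl or Rps with a number, or Rplp0 to Rplp2, with the common suffixes for related genes and without processed copies marked ps. This gave 82 of 23337 gene names. The labels describe Kupffer cells (macrophages that reside in the liver), sorted into YFP+ and YFP- fractions from Lyz2cre-RosaYFP reporter mice of 6 to 8 weeks and both sexes. Cre is driven by the lysozyme gene Lyz2, which myeloid cells express, and turns on the yellow fluorescent protein YFP from the Rosa site. Both groups carry both alleles, the label that separates them is the YFP fluorescence of the sort, and YFP marks past or present Cre activity. There were 2 libraries per group, 1 with a title starting with M and 1 with a title starting with FM, called here YFP+ M, YFP+ FM, YFP- M and YFP- FM. The labels do not say what M and FM stand for or whether each library is a different animal. The spread among these libraries, the only spread that p-values can measure, may thus be technical. In the main test across genes (limma), p-values rest on the trend of this spread over all genes, not on a gene's own spread.

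The cytosolic ribosome has a large subunit, which holds the peptidyl transferase centre, and a small subunit, which reads the mRNA. Each contains ribosomal RNA and many small basic proteins, encoded by Rpl and Rps genes respectively, and an acidic stalk of Rplp0, Rplp1 and Rplp2 on the large subunit recruits translation factors. Ribosomal protein mRNAs are among the most abundant of a cell. Most start with a terminal oligopyrimidine tract, a C followed by further pyrimidines, through which mTOR and Larp1 control their translation and stability. The pyrimidine run CTCTTTC is shown for 6 members because several members share it near their annotated start. It is not taken as the terminal tract itself, and a member without these letters may still have such a tract. Promoter sequences from RefSeq (GRCm38.p6) were matched for 62 of the 82 members. The letters CTCTTTC were sought on the coding strand, which reads as the transcript does, from 50 bases before to 50 bases after the annotated start. They were present in 11 of these 62 (17.7%), against 1.33% of 27025 promoter entries of the same length. On either strand, the shares were 19.4% and 2.53%. The 6 windows of 30 bases below have the match in capitals. Among members with this run and a complete window, they are the 3 of lowest and the 3 of highest YFP+ minus YFP- difference. The matches begin between 20 bases before and 30 bases after the annotated start, and whether transcripts begin at them was not tested. The windows lie at chr11:68901578-68901607 (Rpl26, plus strand), chr5:107900497-107900526 (Rpl5, plus), chr7:118116142-118116171 (Rps15a, minus), chr16:33056471-33056500 (Rpl35a, plus), chr10:128626483-128626512 (Rps26, minus) and chr7:4792954-4792983 (Rpl28, plus).
Rpl26: cgcgtgtagttCTCTTTCcttttgcggcca
Rpl5: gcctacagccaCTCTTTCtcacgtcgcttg
Rps15a: cccggcccactCTCTTTCtgccatcttccc
Rpl35a: ggcttgccttcCTCTTTCcgccatcttggc
Rps26: gccgccggatcCTCTTTCgagtcttggctc
Rpl28: ctctcgtgtctCTCTTTCcgtctccggccg
The tested members with the CTCTTTC run had a median YFP+ minus YFP- difference of 0.61 (log2 scale, n = 11). Those with a matched promoter but without the run had 0.60 (n = 49). The difference between these medians was not tested, and the members with the run ranged from Rpl26 (-3.43) to Rpl28 (1.18). In the whole 300-base promoter, on either strand and with matches of different motifs allowed to overlap, CCGGAAG, the core bound by ETS factors such as Gabpa, was found in 24 of 62 members (38.7%) against 9.12% of all entries. The Sp1-type GC box GGGCGG was found in 37 members (59.7%) against 35.9%, and AAGATGGC, a Yy1-type motif, in 5 members (8.06%) against 2.88%. A match describes these letters only and is no evidence of binding.

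The labelled cell type was checked against markers before the members were compared. Summed over 10 Kupffer cell markers, the YFP+ M and YFP+ FM libraries held 34157 and 33103 TPM (a share of all transcripts, already divided by transcript length), and the YFP- M and YFP- FM libraries 5930 and 12026 TPM. Summed over 10 microglia markers, which mark the macrophages of the brain, the same libraries held 1021 and 75.5 TPM against 17678 and 16425 TPM. In both YFP- libraries, although labelled as Kupffer cells, the microglia sum lay above the Kupffer cell sum. None of the genes in either list was at 0 in any library. Of the 5 astrocyte genes, summed at 33.3 and 5.36 against 187 and 172 TPM, Gfap and Aqp4 were at 0 in at least 1 library. Of the 5 myelin genes, summed at 30.6 and 4.28 against 644 and 669 TPM, Mog, Mobp and Cldn11 were. The 8 endothelial genes summed to 215 and 98.9 against 1025 and 866 TPM. The 5 neutrophil genes summed to 1255 and 6510 against 1391 and 2962 TPM. The 7 hepatocyte genes summed to 307 and 647 against 1373 and 2044 TPM, of which Ttr made 1053 and 830 TPM in the YFP- libraries. Between the FM libraries, 8 of the 10 Kupffer cell markers were higher in YFP+. Cdh5 (62.3 against 144 TPM) and Spic (23.2 against 80.4 TPM) were lower there. The part of these other cells in the ribosomal protein results was not tested. Depth is known only from coverage at 1 FPKM. It was 4.81 reads per base in YFP+ M, 2.60 in YFP+ FM, 9.19 in YFP- M and 2.59 in YFP- FM. The FM libraries were thus the shallowest, and the part of depth in the results was not tested. In the same order, 10302, 7386, 12434 and 12829 genes reached 1 TPM. Among the 12251 genes tested, the median level was 6.20 TPM in YFP+ M, 1.80 in YFP+ FM, 15.0 in YFP- M and 21.7 in YFP- FM, so a typical gene was lower in YFP+ libraries before any member is considered.

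Ribosomal protein mRNA made up the smallest share of all TPM in YFP- FM. The 82 members summed to 17.3% of all TPM in YFP+ M, 22.5% in YFP+ FM and 17.6% in YFP- M, but to 7.19% in YFP- FM. The group means were 19.9 ± 3.66% and 12.4 ± 7.35% (SD, n = 2), and the ranges of the groups overlapped, since YFP- M stood above YFP+ M. The exact two-sided permutation test gave p = 0.667, where 2 against 2 libraries cannot go below 0.333. Between the M libraries the YFP+ share was 0.984-fold the YFP- share, and between the FM libraries 3.13-fold. The overlap depends on the denominator. When each library's 100 most abundant other genes were left out of the total, the shares were 33.0% in YFP+ M, 50.5% in YFP+ FM, 26.1% in YFP- M and 10.1% in YFP- FM (exact p = 0.333). Both YFP+ libraries then lay above both YFP- libraries, 1.26-fold between the M and 5.01-fold between the FM libraries. The member sums did not change in this step, which took more of the total out of the YFP+ libraries. With members included, the 100 most abundant genes held 54.0% of TPM in YFP+ M, 66.1% in YFP+ FM, 40.9% in YFP- M and 29.7% in YFP- FM. On all TPM and without YFP- FM the difference of the group means fell from 7.51 to 2.31 percentage points. In bulk RNA, fewer cells of a type and less RNA per cell cannot be told apart, and since TPM has a fixed sum a smaller share can come from more of other transcripts. The 100 most abundant genes of a library included 37 members in YFP+ M, 38 in YFP+ FM, 47 in YFP- M and 19 in YFP- FM.

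**Figure D1:**
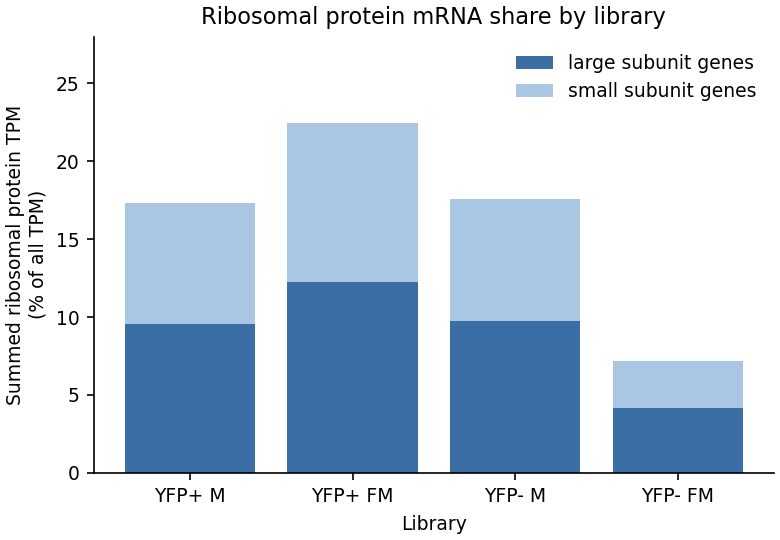
Summed TPM of large subunit (dark) and small subunit (light) ribosomal protein genes as a percent of all TPM (vertical axis) in each of the 4 libraries (horizontal axis), 1 bar per library with no error. YFP- FM stands at 7.19%, and the other libraries at 17.3% to 22.5%.

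The balance of the subunits varied far less than the level of the pool. Large subunit genes, the stalk included, made up 55.3% of the pool in YFP+ M, 54.5% in YFP+ FM, 55.5% in YFP- M and 58.1% in YFP- FM. Both YFP+ libraries thus lay below both YFP- libraries, with a YFP+ minus YFP- difference of -0.192 percentage points between the M libraries and -3.65 between the FM libraries, and the exact p of 0.333 is the smallest the design allows. The 3 stalk genes took 9.19% and 11.3% of the pool in the YFP+ libraries and 8.20% and 8.58% in the YFP- libraries (exact p = 0.333). Rplp1 was the most abundant member in every library, at 9124 TPM in YFP+ M, 15617 in YFP+ FM, 7742 in YFP- M and 2976 in YFP- FM. Its partner Rplp2 stood at 4485, 6444, 3951 and 1548 TPM in the same order, and the scaffold Rplp0 at 2303, 3402, 2738 and 1644 TPM. For Rplp1 and Rplp2 both YFP+ values lay above both YFP- values, whereas the groups overlapped for Rplp0. None of the 3 passed the test across all genes (limma adjusted p = 0.0514, 0.124 and 0.60), and all 3 differences turned negative under cyclic loess.

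In the test across all genes, 80 of the 82 members reached 1 TPM in at least 2 libraries. Of these, 2 were called higher in YFP+ libraries and 1 lower (limma with Benjamini-Hochberg adjustment, threshold 0.05), against 0.522% and 39.5% of all 12251 tested genes. At an unadjusted p under 0.05 there were 6 higher and 2 lower. Of all 12251 tested genes, 6506 had such a p in either direction, a count made on the deposited values only. Under quantile normalization 0 members were called (1 at an unadjusted p under 0.05), against 1.21% of all tested genes higher and 1.67% lower. Under median-ratio scaling 1 was called higher and 0 lower, against 5.62% and 5.9%, and with FPKM 7 higher and 1 lower, against 1.02% and 30.8%. The median difference of the members on the log2(TPM + 1) scale was 0.70, with 71 of 80 above 0, and that of all tested genes was -1.73. Rescaling the libraries changed how far the members lay from other genes: the median of the members minus that of all genes was 2.44 on the deposited values, 3.09 under median-ratio scaling, 0.33 under quantile normalization and 0.02 under cyclic loess, where 42 of 80 members were above 0. By title start, the members' median difference was -0.13 between the M libraries, with 33 of 80 higher in YFP+ (14% of all tested genes were), and 1.61 between the FM libraries, with 74 of 80 higher (5.68% of all tested genes). All of these values come from the same 4 libraries, and the difference between the title starts was not tested. YFP- FM was the lowest of the 4 libraries for 73 of the 80 members and for 3.91% of all tested genes. Both YFP+ libraries lay above both YFP- libraries for 29 members (36.3%), against 2.5% of all tested genes, and below both for 3 members, against 79.7%.

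**Figure D2:**
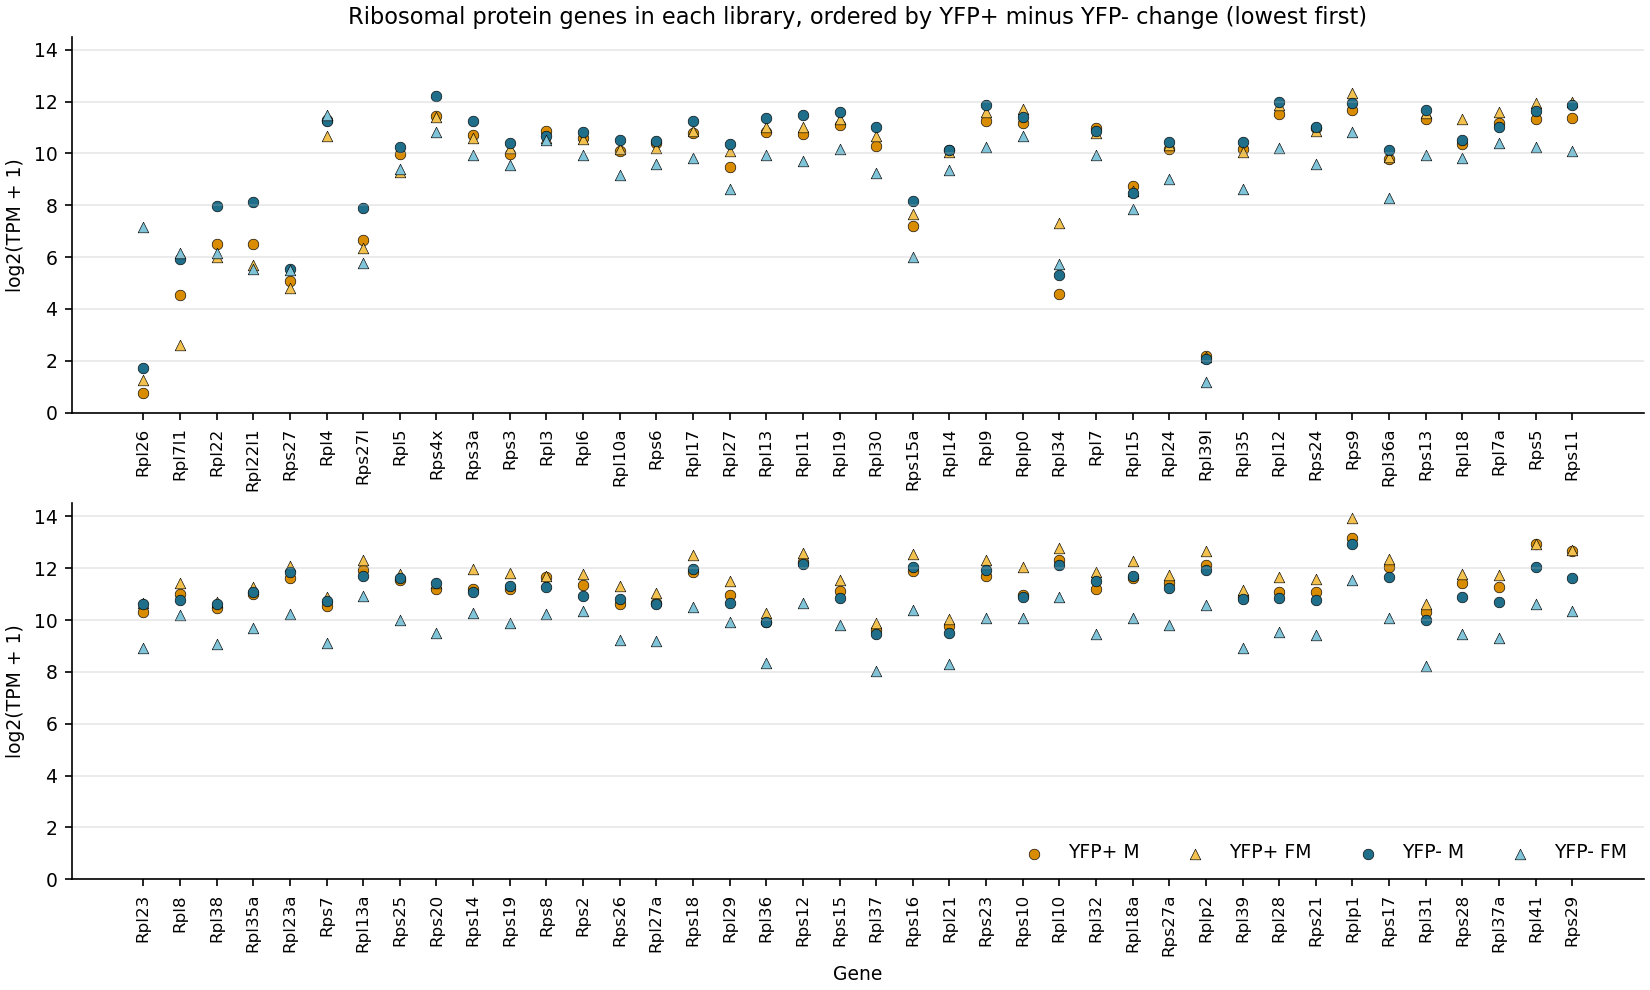
Level of each of the 80 tested ribosomal protein genes as log2(TPM + 1) (vertical axis) in each library (1 point each), with genes on the horizontal axis in the order of their YFP+ minus YFP- difference. YFP- FM (light triangles) is lowest for 73 of 80 genes, and Rpl39l stays below 4 TPM in all 4 libraries.

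**Figure D3:**
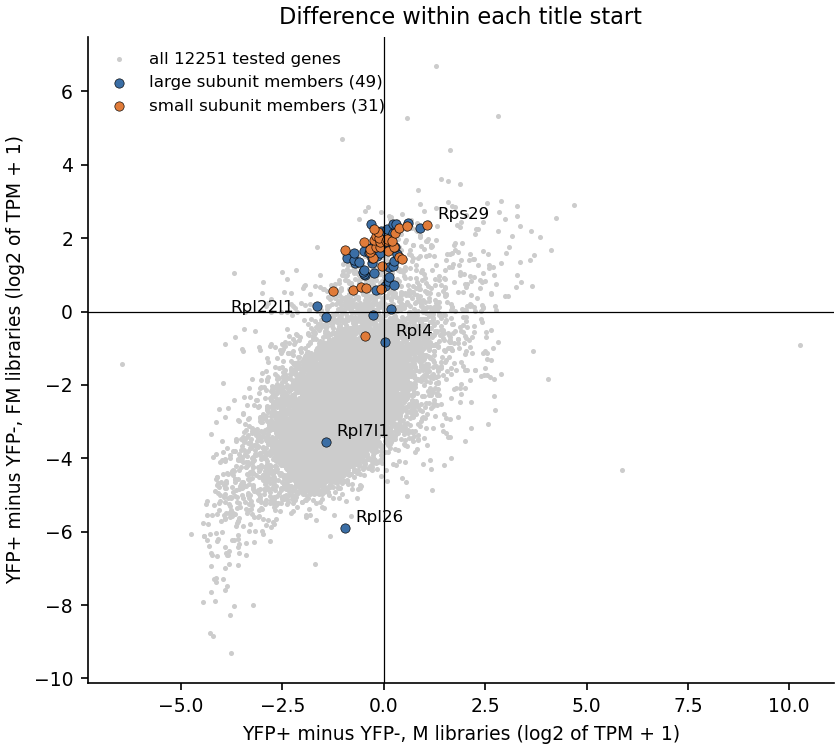
YFP+ minus YFP- difference of log2(TPM + 1) between the M libraries (horizontal) and between the FM libraries (vertical) for large subunit members, small subunit members and all 12251 tested genes (grey). Most members sit near 0 on the horizontal axis (median -0.13) and above 1 on the vertical axis (61 of 80), while the medians of all genes are -1.01 and -2.48.

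Rps29 and Rpl41 were the members called higher. Rps29, a small zinc-binding protein of the small subunit head (56 amino acids, chromosome 12, 69157722 to 69159186 in GRCm38), stood at 6558 TPM in YFP+ M, 6687 in YFP+ FM, 3116 in YFP- M and 1313 in YFP- FM. Both YFP+ values lay above both YFP- values. The means were 6622 ± 91.4 against 2215 ± 1275 TPM (SD, n = 2), a log2 difference of 1.71 (SE 0.62, limma adjusted p = 0.0228). Rps29 was the member still called higher when YFP- FM was left out (1.09, adjusted p = 0.0362), but it was not called under quantile normalization (1.03, adjusted p = 0.342), median-ratio scaling (4.01, 0.158) or cyclic loess (0.53, 0.598). Under median-ratio scaling the difference itself was thus larger than on the deposited values. Rpl41, the shortest ribosomal protein (25 amino acids, chromosome 10, 128548110 to 128549168), stood at 7925 TPM in YFP+ M, 7739 in YFP+ FM, 4242 in YFP- M and 1583 in YFP- FM. Its groups did not overlap either, and its log2 difference was 1.60 (SE 0.61, adjusted p = 0.0285). This call ended without YFP- FM (0.88, adjusted p = 0.0852), under quantile normalization (0.61, 0.595) and under cyclic loess (0.29, 0.793). It also ended, with a difference of like or greater size, without YFP+ M (1.58, adjusted p = 0.252), without YFP+ FM (1.61, 0.343) and under median-ratio scaling (3.90, 0.196). The Rps29 call likewise ended without YFP+ M (1.72, adjusted p = 0.206) or YFP+ FM (1.70, 0.314).

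Next in order came Rpl37a, Rps28 and Rpl31, which did not pass. Rpl37a, a zinc-binding large subunit protein, stood at 2477 TPM in YFP+ M, 3408 in YFP+ FM, 1652 in YFP- M and 632 in YFP- FM (1.51, adjusted p = 0.0629). Rps28, a small subunit protein near the mRNA exit, stood at 2790, 3536, 1873 and 705 TPM in the same order (1.45, adjusted p = 0.0695). Rpl31, which lies by the exit of the peptide tunnel, stood at 1253, 1588, 1021 and 302 TPM (1.34, adjusted p = 0.122). In all 3 the YFP+ and YFP- values did not overlap, with the wider gap between the FM libraries. When YFP- M was left out, so that YFP- FM stood alone for its group, 37 members were called higher and 1 lower, against 0.857% and 11.5% of all tested genes. Without YFP- FM, 1 was called higher and 0 lower, against 0.457% and 7.56%.

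At the low end stood Rpl26, Rpl7l1, Rpl22, Rpl22l1 and Rps27. Rpl26, a large subunit protein that sits near the tunnel exit (145 amino acids, chromosome 11, 68901566 to 68904534), was the member called lower, at 0.696 TPM in YFP+ M, 1.41 in YFP+ FM, 2.28 in YFP- M and 144 in YFP- FM (log2 difference -3.43, SE 1.06, adjusted p = 0.00781). The high value is in 1 library alone, and without YFP- FM the difference was -0.70 (adjusted p = 0.638). The call also ended under quantile normalization (-1.64, adjusted p = 0.515), median-ratio scaling (-1.64, 0.237) and cyclic loess (-1.21, 0.654). In the other 3 libraries Rpl26 lay far below the median member, which was 1874 to 2526 TPM. Rpl7l1, a relative of Rpl7, stood at 22.01 TPM in YFP+ M, 5.04 in YFP+ FM, 60.4 in YFP- M and 70.6 in YFP- FM (-2.49, adjusted p = 0.0508). It was lower in YFP+ between both the M (-1.42) and the FM libraries (-3.57), the direction of most tested genes. Rpl7 itself, which binds ribosomal RNA of the large subunit, stood at 2013, 1752, 1876 and 983 TPM in the order YFP+ M, YFP+ FM, YFP- M and YFP- FM (0.47, adjusted p = 0.560).

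Among the other paralogs, Rpl22 and Rpl22l1, which can replace each other in the large subunit, were of like abundance. Rpl22 stood at 90.6 TPM in YFP+ M, 63.6 in YFP+ FM, 247 in YFP- M and 70.7 in YFP- FM (-0.79, adjusted p = 0.467). Rpl22l1 stood at 89.3, 51.2, 280 and 45.5 TPM in the same order (-0.74, adjusted p = 0.506). Both were highest in YFP- M and alike in the FM libraries, unlike most of the pool. Rps27l, the paralog of Rps27, was also highest in YFP- M, at 99.1 TPM in YFP+ M, 80.7 in YFP+ FM, 238 in YFP- M and 54.1 in YFP- FM (-0.34, adjusted p = 0.759). Rps27, a zinc finger protein of the small subunit, was listed at 32.4, 27.2, 45.3 and 43.8 TPM (-0.57, adjusted p = 0.639), below its paralog in every library. The sign of Rpl22, Rpl22l1, Rps27 and Rps27l turned positive under quantile normalization, median-ratio scaling and cyclic loess. Rpl39l, a paralog of Rpl39 typical of the testis, was at 3.55 TPM in YFP+ M, 3.38 in YFP+ FM, 3.19 in YFP- M and 1.28 in YFP- FM (0.53, adjusted p = 0.541), far under Rpl39 at 1880, 2269, 1795 and 479 TPM (1.15, adjusted p = 0.159). It was the member called higher under median-ratio scaling (adjusted p = 0.0229). Rpl3l, a paralog of Rpl3 used in muscle, was listed at 0 in both YFP+ libraries and at 0.395 and 0.459 TPM in YFP- M and YFP- FM, while Rpl3 stood at 1876 TPM in YFP+ M, 1536 in YFP+ FM, 1647 in YFP- M and 1456 in YFP- FM (0.13, adjusted p = 0.871). Rpl10l, the autosomal copy of Rpl10 used in the male germ line, was listed at 0 in all 4 libraries. Both fell below the filter.

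Some low values belong to genes with near-identical processed copies, for which the way the authors' counting split the reads is uncertain. Rpl34 was at 22.8 TPM in YFP+ M, 160 in YFP+ FM, 38.8 in YFP- M and 51.9 in YFP- FM, while the row of its copy Rpl34-ps1 held 2631, 4203, 3241 and 1092 TPM. Their sums of 2654, 4363, 3280 and 1144 TPM are of the size of other members and have YFP- FM lowest, as in the rest of the pool. The other 5 rows of copies ranged from 2.94 to 112 TPM, and none exceeded its parent gene. For Rpl26 and Rps27 no row named as a copy was found, and why they are low was not tested.

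The 4 members on the X chromosome did not share a pattern of their own. Rpl10, which joins the large subunit late in its assembly, stood at 5150 TPM in YFP+ M, 6966 in YFP+ FM, 4500 in YFP- M and 1911 in YFP- FM (1.03, adjusted p = 0.149), with no overlap between the groups. Rpl36a, near the tRNA exit site, stood at 871, 929, 1129 and 307 TPM in the same order (0.61, adjusted p = 0.486), and Rpl39 was given above. Rps4x, a small subunit protein, stood at 2820 TPM in YFP+ M, 2693 in YFP+ FM, 4739 in YFP- M and 1797 in YFP- FM (-0.08, adjusted p = 0.915). Its YFP+ values lay between the YFP- values, and the sign turned under median-ratio scaling.

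To separate the make-up of the pool from its level, all libraries were scaled to the same ribosomal protein sum and tested again. On this scale 0 of 80 members were called in either direction (limma), against 0.0571% of all tested genes higher and 0.384% lower. At an unadjusted p under 0.05 there were 3 members, all lower, and all genes were not counted at that p. Each member's share of the pool stayed within 2-fold across the 4 libraries for 64 of 80 members, and the median ratio of the highest to the lowest share was 1.58. The widest ratios were those of Rpl26 (498) and Rpl7l1 (43.8), followed by Rpl22l1 (6.999) and Rpl4 (5.58). Against the pool, Rps29 (0.90, adjusted p = 0.122), Rpl41 (0.78, adjusted p = 0.136) and Rpl37a (0.70, adjusted p = 0.314) were furthest up, and Rpl26 (-4.12, adjusted p = 0.0946), Rpl7l1 (-3.25, adjusted p = 0.114) and Rpl22 (-1.59, adjusted p = 0.302) furthest down. Without YFP- M, 2 members were called higher (Rpl41 and Rps29) and 2 lower (Rpl4 and Rpl26) on this scale, against 0.367% and 25.6% of all tested genes. Without YFP- FM, 1 was called higher (Rps29) and 0 lower, against 0.367% and 4.27%.

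Between the FM libraries, differences among the members ran with the length of the protein. Over the 75 members with a mean of at least 100 TPM, Spearman's rho between protein length and YFP+ minus YFP- difference was -0.62 between the FM libraries and -0.12 between the M libraries. These points share their libraries, and over 991 other genes of at least 100 TPM rho was -0.52 and 0.05, so the relation in the FM libraries was not limited to ribosomal proteins. The 9 members of up to 100 amino acids took 15.1% of the pool in YFP+ M, 13.1% in YFP+ FM, 9.64% in YFP- M and 8.70% in YFP- FM. The 21 members of over 200 amino acids took 25.6%, 22.4%, 26.4% and 35.4% in the same order. The short members were thus a larger part of the pool in both YFP+ libraries than in either YFP- library, and the long members a larger part in YFP- FM. Much of the gap of the short members lay in Rpl41 and Rps29, the members called higher. They took 4.58% and 3.79% of the pool in YFP+ M against 2.41% and 1.77% in YFP- M. In the FM libraries they took 3.44% and 2.97% in YFP+ against 2.20% and 1.83% in YFP-. Of the 9 short members, 7 were higher in YFP+ M than in YFP- M. Rpl4, the longest at 419 amino acids, which lines the peptide tunnel and was picked after its values were seen, stood at 2519 TPM in YFP+ M, 1611 in YFP+ FM, 2458 in YFP- M and 2876 in YFP- FM (-0.40, adjusted p = 0.602). With Rpl26 and Rpl7l1 it was one of 3 tested members that were highest in YFP- FM, and its sign turned under median-ratio scaling. Rpl5, which carries 5S ribosomal RNA into the large subunit and was also picked after its values were seen, stood at 997, 625, 1203 and 671 TPM (-0.19, adjusted p = 0.834, with the sign turned under median-ratio scaling).

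**Figure D4:**
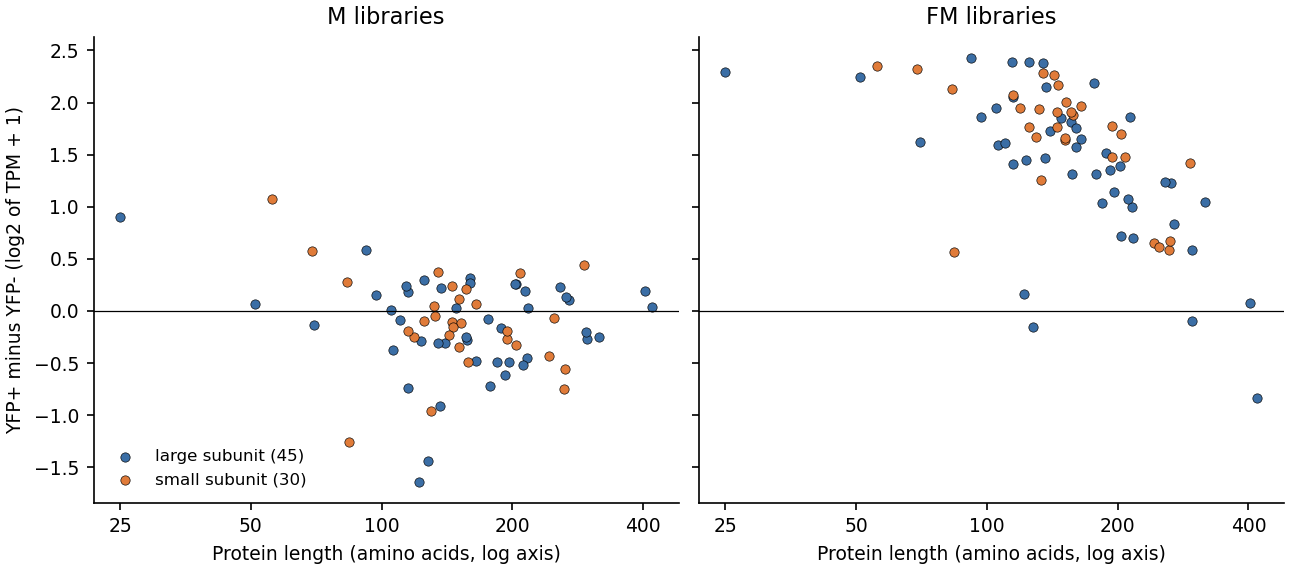
YFP+ minus YFP- difference of log2(TPM + 1) (vertical) against protein length in amino acids (horizontal, log axis) for 45 large and 30 small subunit members with a mean of at least 100 TPM, between the M libraries (left) and between the FM libraries (right). In the FM panel longer members lie lower (rho -0.62), and in the M panel most lie near 0.

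Of 4 ribosomal proteins that the name rule leaves out and that are described here, 1 was called higher and 0 lower. Among all tested genes the shares were 0.522% and 39.5%. Fau, a ubiquitin-like fusion that yields a small subunit protein, stood at 4679 TPM in YFP+ M, 7551 in YFP+ FM, 2654 in YFP- M and 1423 in YFP- FM with a called difference (1.61, limma adjusted p = 0.0321). It was also called without YFP- FM (1.16, adjusted p = 0.0291), but not under quantile normalization (0.93, adjusted p = 0.386), median-ratio scaling (3.91, 0.158) or cyclic loess (0.48, 0.621), or without YFP+ M (1.96, 0.151) or YFP+ FM (1.27, 0.448). The signalling scaffold of the small subunit, listed under its older name Gnb2l1 (Rack1), stood at 3877, 4092, 2677 and 1505 TPM in the same order (0.99, adjusted p = 0.188). Neither Fau nor Gnb2l1 had overlap between groups, and 2.5% of all tested genes likewise had both YFP+ libraries above both YFP- libraries. Rpsa, the laminin receptor and small subunit protein, stood at 1541 TPM in YFP+ M, 1738 in YFP+ FM, 1609 in YFP- M and 1205 in YFP- FM (0.23, adjusted p = 0.776), and Rpl36al at 434, 465, 570 and 166 TPM (0.55, adjusted p = 0.568), both with overlap. Under cyclic loess Gnb2l1 and Rpsa turned negative, and Rpsa did so under quantile normalization too.

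Abundance alone was set beside these values, because the 100 most abundant genes took 54.0% and 66.1% of TPM in YFP+ M and YFP+ FM but 40.9% and 29.7% in YFP- M and YFP- FM. Of 70 members with a mean of at least 500 TPM, 2 were called higher and 0 lower (limma), with a median difference of 0.79. Of 202 other genes that abundant, 45 were called higher and 12 lower, with a median of 0.62. Between the M libraries the medians were -0.09 for the members and 0.54 for the others, and between the FM libraries 1.66 and 0.53. YFP- FM was the lowest library for 68 of the 70 members and for 82 of the 202 others.

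Lists of genes that make, control or work with ribosomes were set beside the members. On the deposited values the median difference was -1.79 for 54 ribosome biogenesis genes, -1.75 for 36 initiation factors, -1.39 for 19 genes of mTOR and Larp1 control, -1.22 for 13 elongation and termination genes and -2.25 for 12 transcription regulators, beside -1.73 for all tested genes and 0.70 for the members. Counts called lower were 13 of 54, 6 of 36, 3 of 19, 4 of 13 and 5 of 12 in the same order, against 39.5% of all tested genes, and none of these lists held a gene called higher, against 0.522%. Of 76 mitochondrial ribosomal proteins, which serve the separate ribosome of mitochondria, 2 were called lower and the median was -1.03. Their summed level was 2341 TPM in YFP+ M, 1205 in YFP+ FM, 4106 in YFP- M and 2413 in YFP- FM, so YFP+ FM was lowest, not YFP- FM. Under quantile normalization the medians of these mitochondrial genes (0.65) and of the members (0.29) were both above 0, and under median-ratio scaling they were 1.02 and 3.004, with 5 of 76 mitochondrial genes called higher, against 5.62% of all tested genes. Under that scaling 2 of 19 mTOR and Larp1 genes and 1 of 12 transcription regulators were also called higher, and under quantile normalization 1 of the 12 regulators, against 1.21%. The medians of the biogenesis and the mTOR and Larp1 lists also turned positive under quantile normalization (0.013 and 0.49), median-ratio scaling (0.19 and 0.41) and cyclic loess (0.027 and 0.52). Those of initiation (0.48) and elongation (0.99) turned under median-ratio scaling, while that of the transcription regulators stayed below 0 in all 3.

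**Figure D5:**
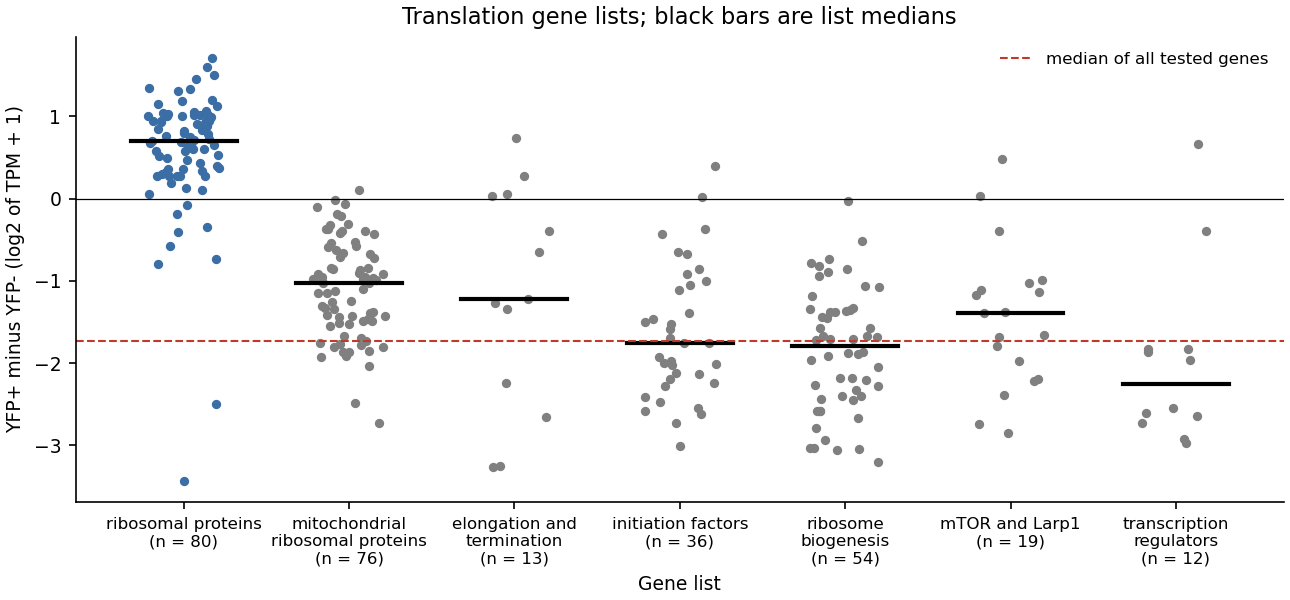
YFP+ minus YFP- difference of log2(TPM + 1) (vertical) for each tested gene of the ribosomal protein members (blue) and of 6 related lists (grey), with list medians as black bars and the median of all tested genes (-1.73) as a dashed line. The ribosomal protein median is 0.70 on the deposited values (0.01 under cyclic loess), and the medians of the other lists lie between -1.03 and -2.25.

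Some genes among the 4 of smallest p in their list follow. They were picked by that p, and each of the first 5 lay further below 0 than the median of its list. Tsr1, which acts in the maturation of the small subunit, stood at 4.996 TPM in YFP+ M, 0.314 in YFP+ FM, 17.3 in YFP- M and 35.2 in YFP- FM (-3.20, adjusted p = 0.0186). Eif3a, a scaffold of initiation factor 3, stood at 23.9, 6.96, 77.1 and 110 TPM in the same order (-2.72, adjusted p = 0.0304), and Rps6kb1, the kinase that phosphorylates Rps6 downstream of mTOR, at 4.09, 0.513, 17.7 and 17.3 TPM (-2.74, adjusted p = 0.0349). Eef2k, which inhibits elongation factor 2, stood at 2.79 TPM in YFP+ M, 0.390 in YFP+ FM, 17.0 in YFP- M and 25.6 in YFP- FM (-3.25, adjusted p = 0.0132), and the ETS factor gene Gabpa at 1.63, 0.257, 7.99 and 12.6 TPM (-2.60, adjusted p = 0.0133). All 5 were lower in both YFP+ libraries than in either YFP- library, and none of the 5 was called under quantile normalization, median-ratio scaling or cyclic loess, or without YFP+ FM, YFP- M or YFP- FM. Of all tested genes, 79.7% also had both YFP+ libraries below both YFP- libraries. Eef1a1 and Tpt1, whose mRNAs also start with an oligopyrimidine tract, were picked after their values were seen. Eef1a1, which brings aminoacyl-tRNA to the ribosome, stood at 10245 TPM in YFP+ M, 9352 in YFP+ FM, 11260 in YFP- M and 8092 in YFP- FM (0.04, adjusted p = 0.957, negative under quantile normalization and cyclic loess). Tpt1 stood at 6984, 7771, 7030 and 2783 TPM (0.74, adjusted p = 0.281, negative under cyclic loess), with YFP- FM alone low, as in most members.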

How the data were processed

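RNA of 4 libraries, 2 YFP+ and 2 YFP-, was analysed; groups follow the genotype label. Per the file headers the authors deposited, for each gene, read coverage, FPKM and TPM. The submitters' processing notes list HISAT (no version) and, as builds, mm10 and GRCm38. Which program computed the abundances is not stated in these sources. TPM has a fixed sum per library, so each value depends on the other genes. There are no counts, so depth in reads is unknown and no counting interval is given. Rows of one name were summed (166 of 23337 names, 0 of them members). A gene was tested if 2 or more libraries had 1 TPM or more. Tests used limma 3.58.1 (R 4.3.3) on log2(TPM + 1) values (trend, Benjamini-Hochberg over all 12251 genes, threshold 0.05), which understates changes of low genes. The variance prior had infinite weight in this fit, so its p-values rest on the trend over all genes and not on a gene's own spread. Its degrees of freedom were finite without a filter (24.01) and under median-ratio scaling (16.22), quantile normalization (6.87) and cyclic loess (5.56), where a gene's own spread counts too. For the pool test each library was divided by its member sum relative to the mean sum. Protein lengths are those of the principal transcript in GENCODE M21 (GRCm38).

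Members, lists and named genes were chosen with earlier results of these data known. Named are the 3 most abundant members, the stalk, paralogs with their parents, the 5 lowest and 5 highest differences, X-linked members, the 3 furthest from the pool each way, ribosomal proteins outside the name rule (1 is not reported here) and genes of smallest p in each related list. Alternatives were quantile normalization, cyclic loess, median-ratio scaling, FPKM, a block by title start, names on a single row, a 5 TPM filter, no filter, a pseudocount of 0.1 and each library left out. For the pooled share they were FPKM, names on a single row, a denominator without each library's 100 most abundant other genes and each library left out, and for the pool test scaling by the median ratio was added. Deviations of libraries with the same title start from their group means were not correlated over genes (r = -0.01), so the start was not treated as pairing them.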

Additional observations from a re-analysis of the deposited data

Results flagged for a closer look

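The YFP+ minus YFP- difference in the ribosomal protein share of TPM was -0.275 percentage points between the M libraries and 15.3 percentage points between the FM libraries. The signs were opposite in the 2 title starts, with 1 library per group in each. The M difference was small (0.984-fold), and YFP- FM was the library with the low share (7.19%). When each library's 100 most abundant other genes were left out of the total, both differences were positive (6.88 and 40.4 percentage points). The opposite signs thus hold for the full TPM total, and leaving those genes out lowered the total more in the YFP+ libraries. In both cases the difference between the starts was not tested.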

How the results depend on the processing

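The median difference of the members was above 0 under every alternative run and ranged from 0.0065 (cyclic loess) to 3.004 (median-ratio scaling), against 0.70. Its lowest values were under cyclic loess, with 42 of 80 members above 0, and without YFP- FM (0.038, with 44 of 80). The block by title start and the names on a single row could not change this median. In the same way FPKM could not change the pooled share of a library, since TPM is FPKM rescaled to a fixed sum. The counts of called members did not hold, and the unadjusted counts below have no count over all genes beside them. Members called higher were 2, and 1 with a pseudocount of 0.1, 0 without a filter, 0 under quantile normalization, 1 under median-ratio scaling, 0 under loess, 7 with FPKM and 0 when title start was a block (limma; at an unadjusted p under 0.05 there were 4, 1, 27, 1 and 2 members higher without a filter, under quantile normalization, median-ratio scaling, loess and the block). Members called lower were 1, and 2 without a filter (Rpl26 and Rpl3l), 0 at a filter of 5 TPM, where Rpl26 was not tested, and 0 under quantile normalization, median-ratio scaling, loess and the block. Leaving out each library in turn gave 0 to 37 higher and 0 to 2 lower, 0 to 2 each way on the scale of equal ribosomal protein sums, 14 to 105 higher and 865 to 8273 lower over all genes, a median of 0.04 to 1.43 and a difference in share of 2.31 to 12.7 percentage points. Over all genes, 64 higher and 4834 lower became 148 and 205 under quantile normalization, 689 and 723 under median-ratio scaling, 115 higher with FPKM, 23 and 1726 with the block, 40 lower under loess, 3078 lower with a pseudocount of 0.1 and 2902 lower at 5 TPM. Without each library's 100 most abundant other genes the share differed by 23.6 percentage points, and the groups no longer overlapped. That step lowered the total more in the YFP+ libraries. The block ended the calls of Rps29, Rpl41 and Rpl26. The causes were not tested.

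Signs turned under quantile normalization for Rpl22 (0.42), Rpl22l1 (0.55), Rpl3 (-0.45), Rplp0 (-0.38), Rps27 (1.07), Rps27l (0.87), Eef1a1 (-0.90), Larp4 (0.49), Mrpl1 (0.061), Mrps30 (0.054) and Rpsa (-0.34). Under median-ratio scaling they turned for Rpl22 (1.48), Rpl22l1 (1.52), Rpl4 (1.90), Rpl5 (2.11), Rps27 (1.67), Rps27l (1.92) and Rps4x (2.22), and with FPKM for Rpl4 (0.15), Rpl5 (0.36), Rps27l (0.19) and Rps4x (0.46). Under loess they turned for Rpl10 (-0.23), Rpl22 (0.22), Rpl22l1 (0.36), Rpl3 (-0.56), Rpl7 (-0.21), Rplp0 (-0.53), Rplp1 (-0.29), Rplp2 (-0.055), Rps27 (1.07), Rps27l (0.66), Eef1a1 (-1.71), Gnb2l1 (-0.035), Larp4 (0.28), Mrpl1 (0.14), Mrps30 (0.20), Rpl34-ps1 (-0.13), Rpsa (-0.41) and Tpt1 (-0.70). With a library left out the differences ranged from -1.69 to 0.10 for Rpl22, -2.03 to 0.56 for Rpl22l1, -0.011 to 0.28 for Rpl3, -0.95 to 1.81 for Rpl34, -0.33 to 1.55 for Rpl36a, -0.61 to 0.23 for Rpl5, -0.74 to 1.44 for Rps15a, -1.40 to 0.71 for Rps27l, -0.78 to 0.62 for Rps4x, -0.20 to 0.27 for Eef1a1 and -0.34 to 1.43 for Rpl36al.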
